A study of Macaca fascicularis with 16 samples.

Results

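The genes described here make cholesterol and fatty acids, and they were followed in mammary tissue of 16 female, post-menopausal, ovariectomized cynomolgus macaques (Macaca fascicularis). Of 31 listed genes, 24 had at least 1 probe set whose platform annotation gave that symbol alone, out of 14133 genes so named. These came to 54 of the 52865 probe sets on the array. They were 15 of 20 sterol genes (HMGCS1, LSS, SC5D, MSMO1 and ACAT2 had none) and 9 of 11 fatty acid genes (SCD and FADS1 had none). Each group held 4 animals with 1 array per animal. Controls received no treatment. The CEE group received conjugated equine estrogens, a mixed estrogen preparation, at 0.042 mg/kg. The CEE+MPA group received the same CEE dose with 0.167 mg/kg medroxyprogesterone acetate, a synthetic progestin. The tibolone group, titled OD14-HIGH, received 0.2 mg/kg tibolone, a synthetic steroid. All groups shared the loss of the ovaries, so the controls too lacked ovarian hormones. Tibolone was studied at 1 dose, which cannot be set at a dose matched to CEE.

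Cells build cholesterol from acetyl-CoA through mevalonate, isoprenoid units, squalene and a series of sterols. The transcription factor SREBP2, encoded by SREBF2, drives these enzymes when cell sterol is low, and INSIG1 holds the SREBP proteins in the endoplasmic reticulum when sterol is high. SREBP1, encoded by SREBF1, drives fatty acid synthesis, in which ACLY and ACSS2 supply acetyl-CoA, ACACA makes malonyl-CoA, FASN builds palmitate, and ELOVL6 and FADS2 lengthen and desaturate the chain. In the breast both fat cells and milk-forming epithelium use the fatty acid pathway.

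Values are linear probe set signals, in arbitrary units, from arrays designed for rhesus macaque. Fold changes and their standard errors are on the log2(signal + 16) scale, which understates changes of dim genes. Testing was limited to probe sets brighter than 60.2, the table's median signal, on 4 or more of the 16 arrays. This left 47 of the 54 member probe sets and 23 of the 24 genes (15 sterol and 8 fatty acid), each gene represented by its brightest tested probe set. ELOVL5, an elongase of polyunsaturated chains, had 1 probe set with signals of 15.8 to 57.9, and it was not tested. A gene is said to rise or fall where limma's adjusted p over all 28716 tested probe sets was under 0.05.

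Mammary markers were present throughout. Of 13 luminal epithelial markers on the array 12 were tested (CDH1 was not), and their summed signal was 40097 to 43942 in controls, 49086 to 55181 with CEE, 50034 to 59715 with CEE+MPA and 30266 to 56627 with tibolone. All 11 annotated adipocyte markers were tested, with summed signals of 24870 to 42672, 17972 to 32573, 22883 to 36156 and 16566 to 44984 in the same order. Skeletal muscle markers had a mean above 1 in 4 animals: 2 given tibolone (replicate 2 at 2.44, replicate 3 at 1.63), the first control (2.72) and the first CEE+MPA animal (1.35). With CEE the mean was -1.41 to -0.91. Dap and thr spike-in controls, which are added to the RNA, split the arrays into a low set of 6 (2 control, 2 CEE and 2 CEE+MPA) and a high set of 10. All 4 tibolone arrays were in the high set. Of the sebaceous gland markers 4 of the 7 annotated, AWAT1, AWAT2, MC5R and KRT79, did not pass the filter. In bulk tissue, fewer cells of a type and less RNA per cell cannot be told apart.

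Few of these genes passed the threshold, and few of all genes did. ACSS2, which makes acetyl-CoA from acetate, was higher with CEE+MPA than in controls or with tibolone. PMVK, the phosphomevalonate kinase gene of the mevalonate pathway, was higher with CEE+MPA than with tibolone. No other tested member passed in any of the 6 comparisons. Of all genes, 7.69% passed for CEE+MPA against control and 7.35% for tibolone against CEE+MPA. In each other comparison at most 0.0574% did. The largest spread lay between animals of the same group, in the fatty acid genes ELOVL6 and FASN.

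**Figure D1:**
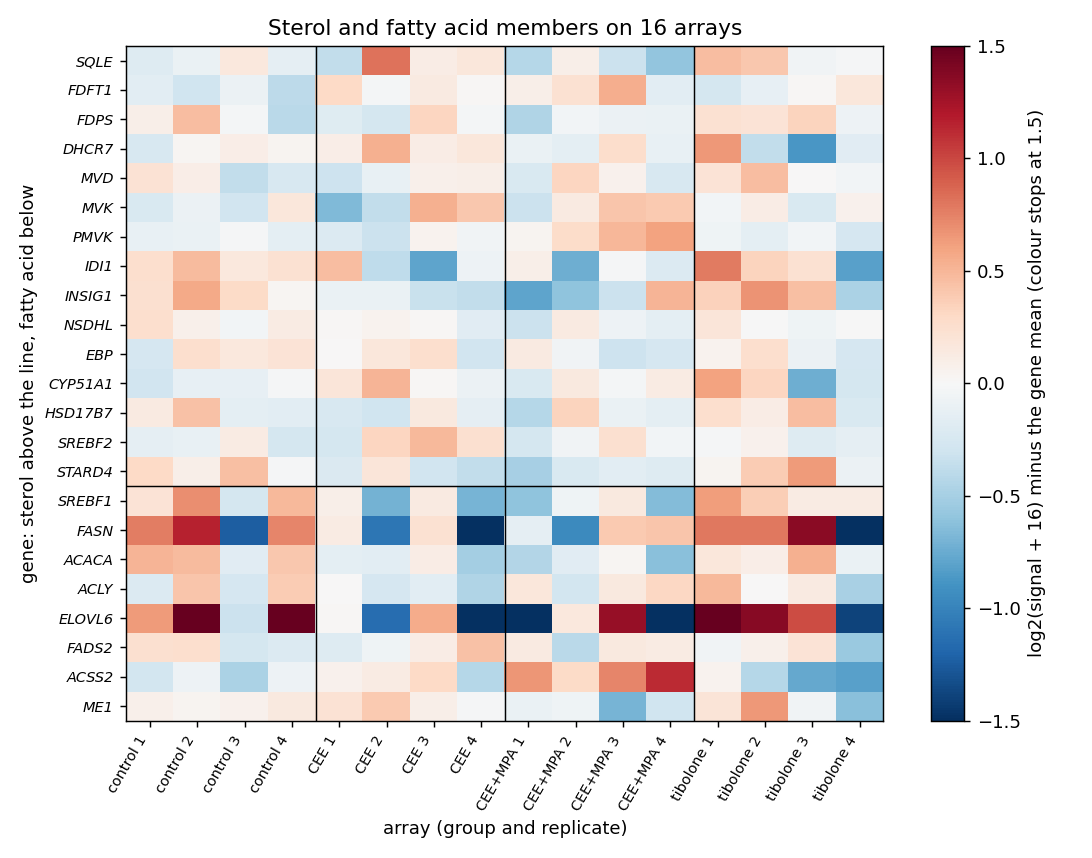
Colours show log2(signal + 16) of each tested gene minus its mean over the 16 arrays (columns, by group and replicate), with sterol genes above the horizontal line and fatty acid genes below it. The strongest colours are in FASN and ELOVL6 and differ within every group, while ACSS2 is high on the CEE+MPA arrays.

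ELOVL6, the elongase that turns palmitate into stearate, varied more than any other member. Its signals were 1079, 2536, 549.7 and 3365 in controls and 698, 301, 1015 and 57.3 with CEE. They were 122, 769, 1713 and 62.3 with CEE+MPA and 3916, 1790, 1373 and 253 with tibolone. The highest was 68.3 times the lowest, and each group overlapped each other group. The within-group SD was 1.68 on the log2 scale, larger than that of 99.8% of the 10455 genes tested, where the median was 0.27. ELOVL6 stood at -2.07 ± 1.04 for CEE and -2.13 ± 1.04 for CEE+MPA against control, and neither passed (limma, adjusted p = 0.436 and 0.225). All 4 ELOVL6 probe sets gave values below 0 in both, from -2.12 to -1.35 for CEE and from -2.23 to -1.31 for CEE+MPA. The 95% intervals of the brightest one, -4.28 to 0.13 and -4.33 to 0.08, left its level under either treatment poorly fixed. For CEE+MPA against control it stood at -3.74 ± 1.31 in the low spike-in set and -0.52 ± 1.31 in the high one. For CEE+MPA against CEE the values were -2.2 ± 1.31 and 2.08 ± 1.31 (2 against 2 arrays each). The differences between sets were not tested.

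FASN, the fatty acid synthase gene, had signals of 3240.4, 4243, 791 and 3161 in controls and 2065, 888, 2229.6 and 651 with CEE. With CEE+MPA they were 1721, 969.6, 2481 and 2541, and with tibolone 3281, 3280.3, 4868 and 528. One control and 1 tibolone animal were far below the other 3 of their group. The FASN within-group SD of 1.04 exceeded that of 99% of genes. FASN stood at -0.91 ± 0.65 with CEE, -0.43 ± 0.65 with CEE+MPA and -0.07 ± 0.65 with tibolone against control, and none passed (limma, adjusted p = 0.594, 0.741 and 0.996). For CEE+MPA it stood at 0.40 ± 0.97 in the low spike-in set and -1.25 ± 0.97 in the high one, a difference that was not tested.

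**Figure D2:**
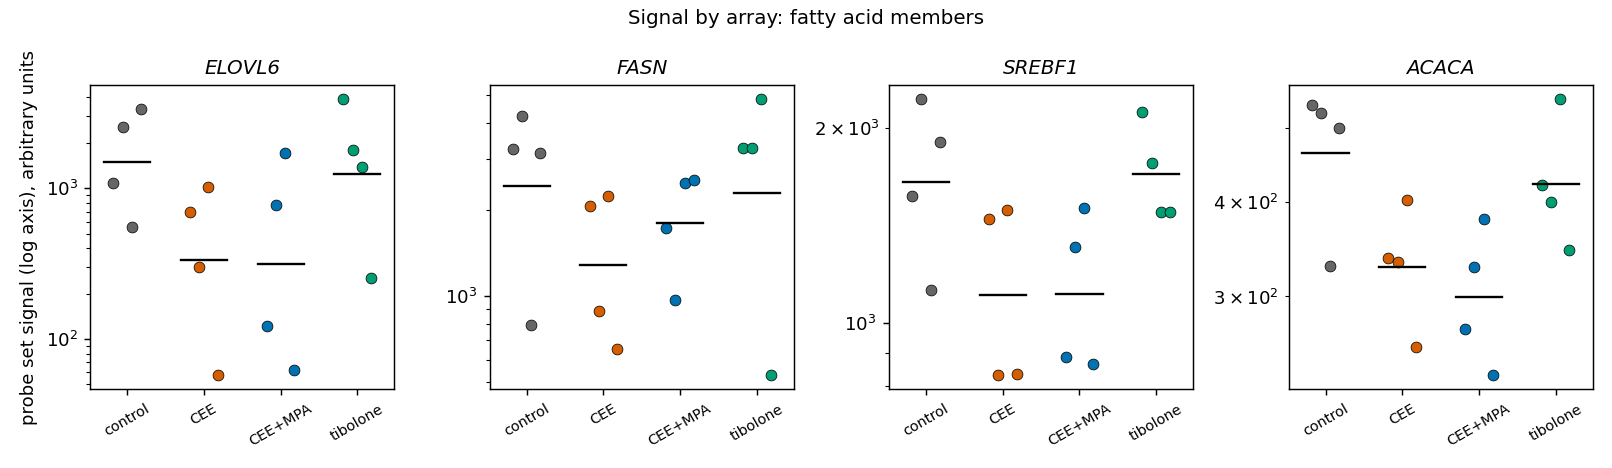
Points are the signals of single arrays on a log axis, by group, for ELOVL6, FASN, SREBF1 and ACACA, and the bars are geometric means of 4 arrays. ELOVL6 spans 57.3 to 3916 and FASN 528 to 4868, with wide overlap of the groups.

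The arrays low in FASN were also low in adipocyte markers. Each member was set against the mean of the 11 adipocyte markers and against the mean of the 12 luminal markers, 46 relations in all, over 16 arrays. Member and markers come from the same RNA and scaling. FASN had r = 0.92 with the adipocyte mean (permutation p = 1e-05, the smallest that 100000 permutations can give; adjusted p = 0.00046) and rho = 0.91 (permutation p = 1e-05, adjusted p = 0.00046). Without CEE replicate 4 and tibolone replicate 4, the 2 arrays farthest from the median, r was 0.86. Within the low spike-in set it was 0.98 (n = 6), within the high one 0.95 (n = 10) and 0.92 after group means were removed. With the luminal mean, FASN had r = -0.17 (permutation p = 0.532, adjusted 0.79) and rho = 0.01 (permutation p = 0.987, adjusted 0.987).

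INSIG1, the sterol sensor gene, had r = 0.71 with the adipocyte mean (permutation p = 0.0022, adjusted 0.0478) and rho = 0.73 (permutation p = 0.00191, adjusted 0.0434). Without the same 2 arrays r was 0.68. It was 0.88 in the high set but 0.05 in the low set, so the relation did not hold within both sets. With group means removed, INSIG1 had r = 0.63. ACACA, the acetyl-CoA carboxylase gene, passed by rank only, with r = 0.66 (permutation p = 0.00558, adjusted 0.0539) and rho = 0.71 (permutation p = 0.00283, adjusted 0.0434). Without the 2 arrays r was 0.62, and it was 0.91 in the high set and 0.14 in the low set. ELOVL6 did not pass, at r = 0.53 (permutation p = 0.0335, adjusted 0.171) and rho = 0.59 (permutation p = 0.0181, adjusted 0.105), and r was 0.31 without the 2 arrays, and 0.12 (low set) and 0.74 (high set) within the spike-in sets. For CYP51A1, a sterol demethylase gene, r with the luminal mean was 0.72 (permutation p = 0.00312, adjusted 0.0478) and rho 0.43 (permutation p = 0.0969, adjusted 0.307). Without tibolone replicates 1 and 3 its r over the other 14 arrays was 0.24, so the value over all arrays depended strongly on these. The low set, which holds no tibolone array, still gave 0.85 (n = 6), and the high set 0.8 (n = 10). After group means were removed, r was 0.7. DHCR7, another sterol gene, had r = 0.69 with the luminal mean (permutation p = 0.00658, adjusted 0.0539) and rho = 0.41 (permutation p = 0.115, adjusted 0.33). Without tibolone replicates 1 and 3 the r of DHCR7 was 0.05. ACSS2 had r = 0.0 with the adipocyte mean (permutation p = 0.996, adjusted 0.996) and rho = -0.1 (permutation p = 0.719, adjusted 0.917), and r = -0.44 without the 2 arrays. Its r was 0.55 (low set), -0.1 (high set) and 0.58 after group means were removed.

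**Figure D3:**
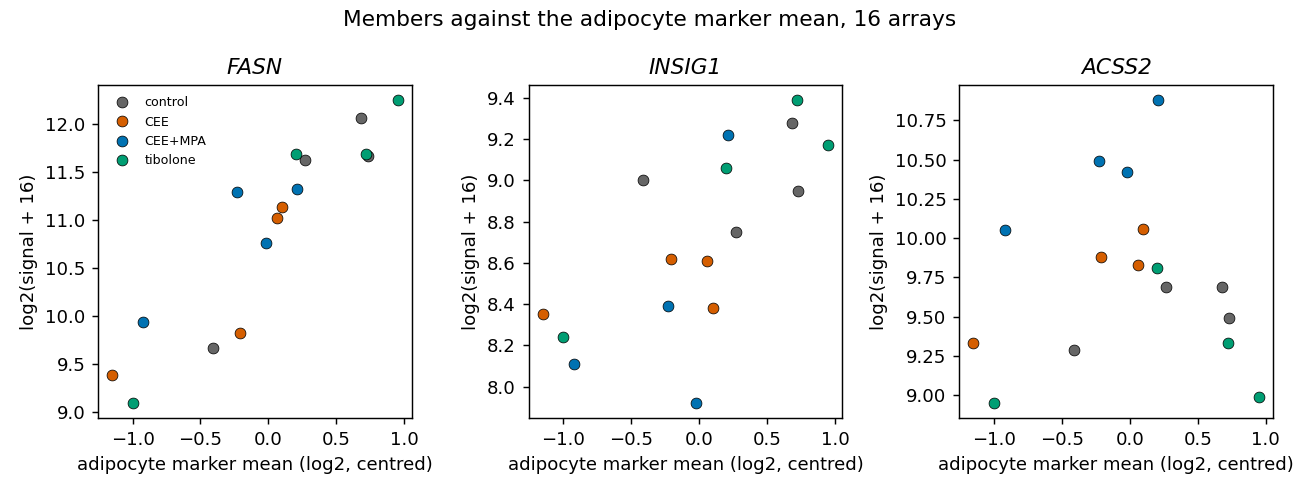
Each point is 1 array, coloured by group, with the mean of the adipocyte markers (log2, each gene centred) on the x axis and log2(signal + 16) of FASN, INSIG1 or ACSS2 on the y axis. FASN follows the marker mean (r = 0.92), while ACSS2 does not (r = 0.0). For ACSS2 the CEE+MPA points (1042 to 1868) lie above those of every other array but CEE replicate 3 (1050.2), which exceeds the lowest of them.

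With CEE+MPA against control, which asks for the response to estrogen with progestin, ACSS2 rose while the rest of the fatty acid genes showed no call. ACSS2 signals were 705, 811, 610 and 809 in controls and 1353, 1042, 1425 and 1868 with CEE+MPA. Every CEE+MPA array was above every control array. The mean went from 734 ± 96.2 to 1422 ± 341 (SD, n = 4 each). On the log2 scale this rise was 0.92 ± 0.22 (limma, adjusted p = 0.0251). That was 1 of 8 fatty acid genes, beside 7.69% of the 10455 genes called in this comparison and 2.74% called higher.

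ACSS2 stood above control in both spike-in sets, by 1.16 ± 0.32 in the low one and 0.68 ± 0.32 in the high one (2 against 2 arrays each; limma, adjusted p = 0.325 and 0.215). Its call ended on leaving out control arrays 1, 2 or 3 (adjusted p = 0.0626, 0.0644 and 0.0591), either CEE+MPA replicate 3 (0.0661) or replicate 4 (0.0515), and on the 12 arrays with little skeletal muscle signal (0.088). Across these and all other alternatives its log2 fold change stayed between 0.78 and 1.08. The summed luminal marker signal was higher on every CEE+MPA array than on every control array, and the part of this sum in the ACSS2 result was not tested. The bright markers KRT19 (mean signal 14237 in controls, 22000.3 with CEE+MPA) and ELF5 (7786 and 14736) carried that sum. KRT7 stood at -1.15 ± 0.36, KRT18 at -0.61 ± 0.23, CLDN4 at -0.59 ± 0.22 and KRT8 at -0.43 ± 0.18 (limma, adjusted p = 0.0645 to 0.155). The mean of the 12 markers on the log2 scale was -0.0375 ± 0.065 in controls and -0.035 ± 0.0569 with CEE+MPA (SD, n = 4). The ACSS2 call held with this mean as a covariate, which is not a test of the sum.

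None of the other fatty acid genes passed, and 6 stood below 0, with ACLY at 0.00. ACACA had signals of 536, 524, 329 and 500.3 in controls and 272, 328, 380.1 and 236 with CEE+MPA, so the groups overlapped through control replicate 3 alone. It stood at -0.61 ± 0.20 (limma, adjusted p = 0.0744) and passed only without control replicate 3 (-0.77, adjusted p = 0.0407). SREBF1, the regulator of the pathway, stood at -0.57 ± 0.26 (adjusted p = 0.192). ME1, which supplies NADPH for fatty acid synthesis, stood at -0.37 ± 0.22 (adjusted p = 0.311), with all 4 CEE+MPA arrays (1801 to 2802) below all controls. The dimmer ME1 probe sets all overlapped, at -0.68 to -0.06. FADS2, a desaturase of polyunsaturated chains, and ACLY, the citrate lyase gene, stood at -0.01 ± 0.20 and 0.00 ± 0.21. The median of the 8 genes was -0.40, beside 0.01 over all genes, and it ranged from -0.57 to -0.06 over the alternatives.

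Sterol genes showed no call with CEE+MPA against control: 0 of 15 passed in limma, 4 had an unadjusted p under 0.05 (26.7%, beside 28.3% of all genes), and their median was -0.15. PMVK was closest, with signals of 1117, 1126, 1192 and 1089 in controls and 1241, 1467, 1708 and 1843 with CEE+MPA. The groups did not overlap, and PMVK stood at 0.45 ± 0.13 (adjusted p = 0.0585). It passed with median centring (adjusted p = 0.0351), an offset of 64 (0.0437), a stricter filter (0.0337), blocking on the spike-in sets (0.0479) and without CEE+MPA replicate 1 (0.0317). Within the low spike-in set PMVK stood at 0.40 ± 0.19, and within the high one at 0.49 ± 0.19.

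STARD4, which carries cholesterol between membranes, had signals of 118, 100.4, 133 and 91.6 in controls and 61.7, 77.1, 81.6 and 79.9 with CEE+MPA. These did not overlap either, and STARD4 stood at -0.47 ± 0.18 (limma, adjusted p = 0.113). FDFT1, the squalene synthase gene, overlapped, at 1128 to 1396 against 1324 to 2163, and stood at 0.41 ± 0.15 (adjusted p = 0.12). INSIG1 stood at -0.58 ± 0.27 (adjusted p = 0.193), and IDI1, which isomerises the isoprenoid unit, at -0.50 ± 0.31 (adjusted p = 0.346), with no overlap. The dimmer IDI1 probe sets overlapped, at -0.23 and -0.62. Non-overlap was found for 3 of 15 sterol genes and 2 of 8 fatty acid genes, beside 19.6% of all genes. SREBF2 stood at 0.07 ± 0.16, with a 95% interval of -0.27 to 0.42.

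**Figure D4:**
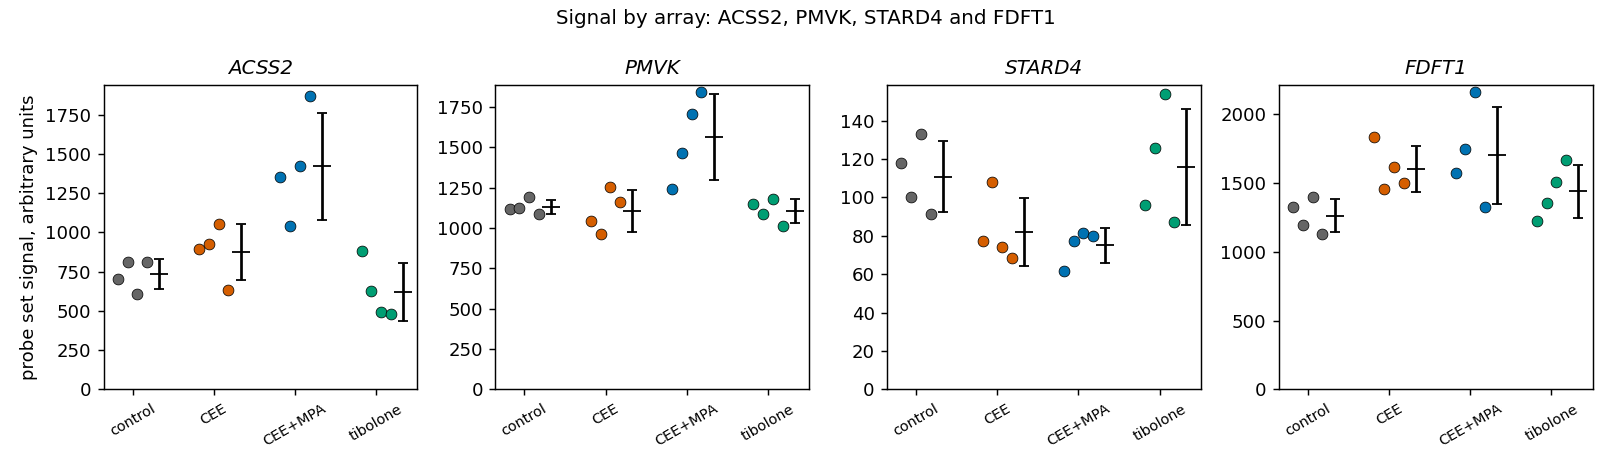
Points are single arrays by group, with mean and SD of 4 arrays at the right of each group, for ACSS2, PMVK, STARD4 and FDFT1 (signal, linear axis from 0). ACSS2 with CEE+MPA lies at 1042 to 1868 and in controls at 610 to 811, and PMVK at 1241 to 1843 against 1089 to 1192.

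Tibolone was compared with CEE+MPA, 2 treatments at unmatched doses. ACSS2 fell from the CEE+MPA signals above to 880, 627, 494 and 477, a mean of 619 ± 186 (SD, n = 4). The groups did not overlap, and the difference on the log2 scale was -1.19 ± 0.22 (limma, adjusted p = 0.0114). In the high set it was -1 ± 0.27 (4 against 2 arrays, adjusted p = 0.0743). PMVK fell to 1149, 1085, 1178 and 1014, all below the CEE+MPA arrays, -0.48 ± 0.13 on the log2 scale (limma, adjusted p = 0.046). One of 15 sterol and 1 of 8 fatty acid genes thus passed, beside 7.35% of all genes, or 3.37% called lower. At an unadjusted p under 0.05 there were 3 of each kind, and 28% of all genes. Groups did not overlap for 2 sterol genes and 1 fatty acid gene, beside 14.8% of all genes. The medians were 0.13 for sterol genes, from 0.05 to 0.20 over the alternatives, and 0.34 for fatty acid genes, from 0.02 to 0.56, beside 0.01 over all genes. This comparison and that of CEE+MPA with control share the CEE+MPA arrays.

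The PMVK call was close to the threshold: it ended without any 1 of the 4 tibolone arrays or of CEE+MPA replicates 2, 3 and 4 (adjusted p = 0.064 to 0.116), and under 8 other alternatives. That of ACSS2 ended in the model of these groups alone (adjusted p = 0.0587) and on arrays with little skeletal muscle signal (0.299). The ACSS2 log2 fold change was -1.19 in the first and -1.1 in the second. The second setting leaves out tibolone replicates 2 and 3 and CEE+MPA replicate 1. STARD4 was higher on every tibolone array (96.2, 126, 154 and 87.1) than on every CEE+MPA array and stood at 0.51 ± 0.18 (adjusted p = 0.0881). It passed without tibolone replicate 4 (0.62, adjusted p = 0.0384) and stood at 0.17 on the arrays with little skeletal muscle signal (adjusted p = 0.807), the ends of its range over the alternatives. SQLE, the squalene epoxidase gene, stood at 0.52 ± 0.22 (adjusted p = 0.155), SREBF1 at 0.61 ± 0.26 (adjusted p = 0.158) and ACACA at 0.48 ± 0.20 (adjusted p = 0.147). The dimmer tested SREBF1 probe set did not overlap, at 0.75 ± 0.25 (limma, adjusted p = 0.0834).

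CEE alone, against control, raised or lowered none of these genes past the threshold. In limma 0 of 15 sterol and 0 of 8 fatty acid genes passed, beside 0.0574% of all genes. At an unadjusted p under 0.05 there were 2 of each, and 14.1% of all genes. FDFT1 had signals of 1834, 1454, 1620.2 and 1504 with CEE, all above the controls (1327, 1199, 1396 and 1128), and stood at 0.34 ± 0.15 (limma, adjusted p = 0.387). The dimmer FDFT1 probe set overlapped, at 0.21 ± 0.16 (adjusted p = 0.628). STARD4 stood at -0.38 ± 0.18 (adjusted p = 0.397). INSIG1 had signals of 374, 378, 316 and 310.4, all below the controls (479, 607, 494 and 414), and stood at -0.51 ± 0.27 (adjusted p = 0.456). Groups did not overlap for FDFT1, INSIG1 and DHCR7, the last enzyme of cholesterol synthesis (0.25 ± 0.24), 3 of 15 sterol genes beside 10.5% of all genes. For DHCR7 this held by less than rounding: the lowest CEE array and the highest control array both had a signal of 185.

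Among fatty acid genes with CEE, ACACA stood at -0.48 ± 0.20 (limma, adjusted p = 0.345) and SREBF1 at -0.57 ± 0.26 (adjusted p = 0.382). SREBF1 signals were 1569.7, 2222, 1125 and 1903 in controls and 1449.5, 829.6, 1493 and 833 with CEE, and they overlapped. ACSS2 stood at 0.24 ± 0.22, with signals of 896, 929, 1050.2 and 629.7. The medians were -0.04 for sterol genes, from -0.10 to 0.07 over the alternatives, and -0.39 for fatty acid genes, from -0.52 to -0.04. The adipocyte marker mean was -0.30 ± 0.583 with CEE and 0.318 ± 0.527 in controls (SD, n = 4).

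Tibolone against control showed no call among the members. None passed in limma, 0 had an unadjusted p under 0.05, and 0.00956% of all genes were called, with 4.83% at an unadjusted p under 0.05. No member was free of overlap, beside 3.11% of all genes. The sterol genes with the smallest p were MVD, the mevalonate decarboxylase gene (0.23 ± 0.18), SQLE (0.27 ± 0.22) and FDFT1 (0.18 ± 0.15), the fatty acid genes ACSS2 (-0.27 ± 0.22) and ACACA (-0.13 ± 0.20). Their adjusted p was 0.913 to 0.948. Sterol genes lay between -0.17 and 0.27 and fatty acid genes between -0.27 and 0.04. The 95% interval of NSDHL, a sterol dehydrogenase gene with little spread, ran from -0.34 to 0.18, and that of FASN from -1.46 to 1.31.

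**Figure D5:**
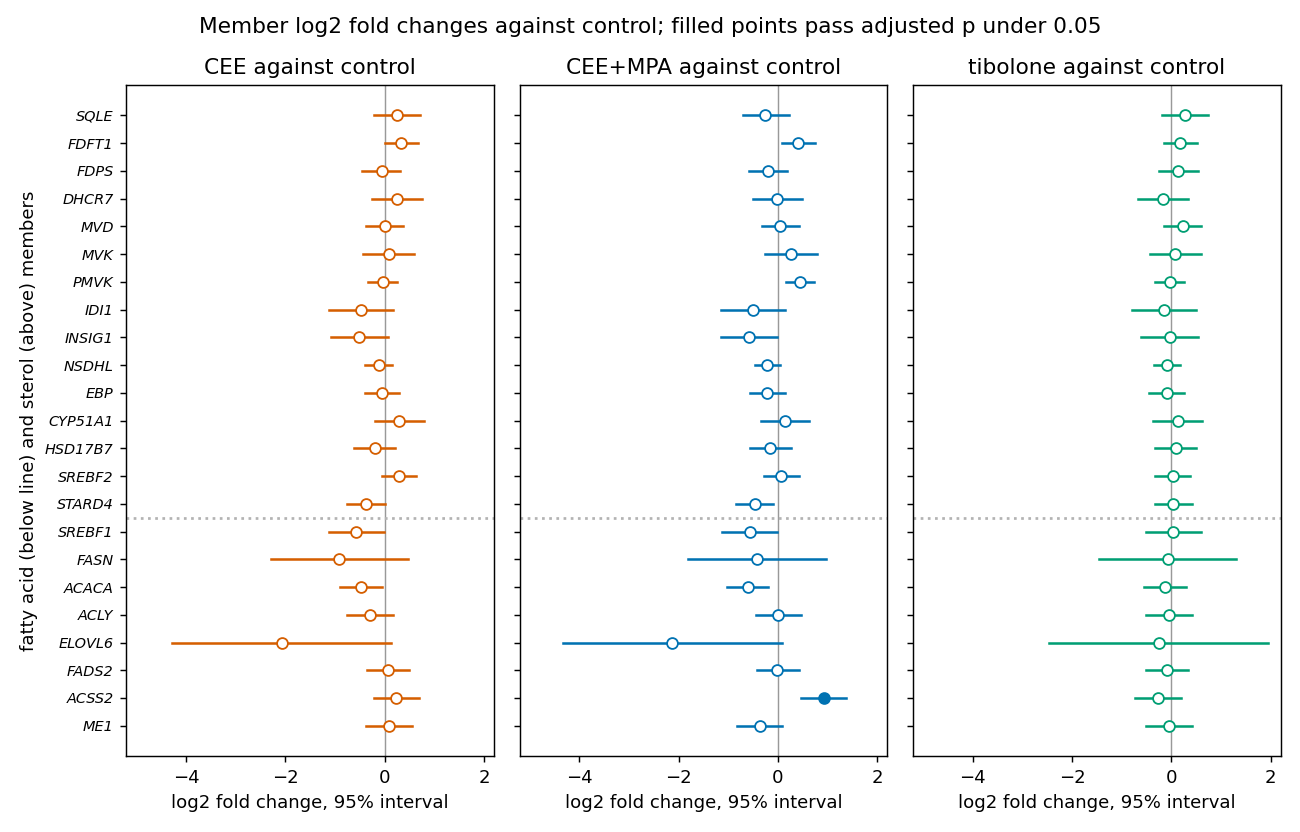
Log2 fold changes against control (points) with 95% intervals from limma (lines) for 15 sterol genes above the dotted line and 8 fatty acid genes below it, for CEE, CEE+MPA and tibolone. The single filled point, past adjusted p of 0.05, is ACSS2 with CEE+MPA at 0.92, and the widest intervals are those of ELOVL6 and FASN. The 3 panels share the same control arrays.

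MPA added to the same CEE dose passed for 0 of 15 sterol and 0 of 8 fatty acid genes in limma, beside 0.0287% of all genes, and 2 of each had an unadjusted p under 0.05 (7.58% of all genes). PMVK stood at 0.49 ± 0.13 (adjusted p = 0.347) and ACSS2 at 0.68 ± 0.22 (adjusted p = 0.449), with 95% intervals of 0.20 to 0.77 and 0.22 to 1.14. Each overlapped between the groups in 1 place, CEE replicate 3 (1256) against CEE+MPA replicate 1 (1241) for PMVK and CEE replicate 3 (1050.2) against CEE+MPA replicate 2 (1042) for ACSS2. SQLE stood at -0.50 ± 0.22 (adjusted p = 0.609), SREBF2 at -0.22 ± 0.16 (adjusted p = 0.781) and ME1 at -0.46 ± 0.22 (adjusted p = 0.646). By its brightest probe set, every ME1 signal with CEE+MPA was below every one with CEE (2882 to 3870.3). It was the 1 member without overlap here, beside 5.61% of all genes. The dimmer ME1 probe sets all overlapped, at -0.61 to 0.07.

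Tibolone against CEE, also at unmatched doses, passed for 0 members in limma, beside 0% of all genes. At an unadjusted p under 0.05 there were 1 of 15 sterol and 2 of 8 fatty acid genes, and 13% of all genes. These were STARD4 (0.42 ± 0.18), SREBF1 (0.61 ± 0.26) and ACSS2 (-0.51 ± 0.22), with adjusted p of 0.373, 0.374 and 0.377. All members overlapped between the groups, beside 5.89% of genes that did not. DHCR7 stood at -0.42 ± 0.24 and INSIG1 at 0.47 ± 0.27 (adjusted p = 0.487 and 0.491).

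None of the sterol genes not yet described passed in any comparison. MVK, which phosphorylates mevalonate, lay between -0.18 and 0.26 over the 6 comparisons, FDPS, the farnesyl diphosphate synthase gene, between -0.20 and 0.34, and EBP, a sterol isomerase gene, between -0.21 and 0.12. MVK pointed opposite ways in the spike-in sets for CEE against control, at -0.46 ± 0.24 in the low one and 0.63 ± 0.24 in the high one (2 against 2 arrays each; limma, adjusted p = 0.852 and 0.309); the difference between sets was not tested. HSD17B7, which also reduces estrone to estradiol, lay between -0.20 and 0.29 by its brightest probe set. A dimmer one stood at 0.39 ± 0.13 for CEE+MPA and for tibolone against CEE, without overlap (limma, adjusted p = 0.459 and 0.284). CYP51A1 lay between -0.17 and 0.30. NSDHL had a within-group SD of 0.13, smaller than that of most genes (4.84% had a smaller one), and PMVK one of 0.16 (11.5%).

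Probe sets of the same gene did not always point the same way. Of 14 members with several tested probe sets, 12 had them all on 1 side of 0 for CEE against control, 9 for CEE+MPA against control, 8 for tibolone against control, 6 for CEE+MPA against CEE, 9 for tibolone against CEE and 10 for tibolone against CEE+MPA. ACSS2 and PMVK each had 1 probe set, so neither call has a second probe set behind it.

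Further genes of both pathways came from lists of 20 sterol and 35 fatty acid genes, of which 11 and 26 were tested. With CEE+MPA against control 0 of 11 sterol genes passed in limma (3 at an unadjusted p under 0.05, beside 28.3% of all genes). Among 26 fatty acid genes 1 rose and 1 fell, a share near the 7.69% of all genes called there. SCD5, a stearoyl-CoA desaturase, fell from 391, 425, 317 and 359 to 239, 161, 110.2 and 151, with no overlap, -1.14 ± 0.23 on the log2 scale (adjusted p = 0.0136), and missed the threshold only without control replicate 2 (0.0542). MCAT, a malonyl transferase of mitochondrial fatty acid synthesis, rose from 317, 322, 268 and 282 to 528, 750.3, 511 and 369, with no overlap, by 0.79 ± 0.18 (adjusted p = 0.0221). Of 20 alternatives 14 kept this call; the 6 that did not (adjusted p = 0.052 to 0.0637) include leaving out array 2 or 3 of either group.

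With tibolone against CEE+MPA, HACD2, a dehydratase of chain elongation, rose by 0.91 ± 0.24 (limma, adjusted p = 0.0366), from 874 to 1764 to a range of 2239 to 3229. ELOVL1, which lengthens very long chains, fell, with a log2 fold change of -0.63 ± 0.17 (adjusted p = 0.0389), from 1167 to 1781 to a range of 744 to 1124. MBTPS2, a protease that releases SREBP, fell, with a log2 fold change of -0.57 ± 0.16 (adjusted p = 0.046), where tibolone replicate 4 (364) overlapped the CEE+MPA arrays (361 to 438). These were 1 of 11 sterol and 2 of 26 fatty acid genes, beside 7.35% of all genes, a share near that of the fatty acid list. Each of the 3 calls ended when any of several single arrays was left out: 6 arrays for HACD2, 5 for ELOVL1 and 7 for MBTPS2. With the spike-in sets, of which the high one holds all tibolone arrays, as the block, HACD2 stood at 0.64 (adjusted p = 0.0683), ELOVL1 at -0.57 (0.0869) and MBTPS2 at -0.52 (0.101). The 3 calls also ended with no filter, with only the groups compared, with skeletal muscle markers as a covariate and on arrays with little skeletal muscle signal. None of these genes passed in the other 4 comparisons. There an unadjusted p under 0.05 was found for 2, 0, 0 and 1 of 11 sterol genes. Among 26 fatty acid genes there were 5, 5, 2 and 3, beside 14.1%, 4.83%, 7.58% and 13% of all genes. The order is CEE against control, tibolone against control, CEE+MPA against CEE and tibolone against CEE.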

How the data were processed

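The authors deposited probe set signal intensity on a linear scale, with a trimmed mean (2% off each end) that was alike on all arrays, 250.01 to 250.02 as computed from the values. The submitters' processing notes name Affymetrix Expression Console and GCOS, while the algorithm behind the signals is not given in the sources used here. The table's 52865 probe sets include 99 controls, which were left out of the tests, and 361 with several symbols, which were not named. Depth does not apply to arrays, and the 4 arrays per group limit the precision.

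The log2(signal + 16) values of 28716 probe sets entered a single limma fit, in which the 16 arrays formed 4 group means, with Benjamini-Hochberg adjustment within each of 6 comparisons. Nothing in the labels names a batch or pairs animals. Replicate numbers follow the order of deposition. Spike-in sets were divided at the largest gap between arrays in the mean of 18 dap and thr probe sets. Marker means are means of log2 values with each gene centred. Correlations used 100000 permutations, two-sided, adjusted over 46 relations. The permutations moved arrays freely between groups, so their p also takes in differences between groups.

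The members, lists and tests were chosen with earlier results of these data known. Named were members past the threshold, up to 3 sterol and 2 fatty acid genes with the smallest p in each comparison, other pathway genes past it, and members that order the pathway by steps. Marker lists were used for adipocyte, luminal epithelial, skeletal muscle, macrophage, fibroblast, milk secretion and sebaceous gland genes. The pipeline was tested on simulated data. Alternatives are given in the closing section. R 4.3.3, limma 3.58.1, Python 3.11.15, numpy 2.4.6 and matplotlib 3.10.9 were used.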

Additional observations from a re-analysis of the deposited data

Results flagged for a closer look

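In 92 tests of 23 genes in 4 groups, 1 array of 4 stood apart from the other 3 by Dixon's test 6 times; chance gives about 1 in 20 groups. FDPS was lowest in CEE+MPA replicate 1 (signal 999.8), where the others were 1277 to 1331. DHCR7 was highest in CEE replicate 2 (255, others 185 to 196) and in CEE+MPA replicate 3 (208, others 153 to 157). NSDHL was lowest in CEE replicate 4 (319.6, others 366 to 374). ACACA was lowest in control replicate 3 (329, others 500.3 to 536), the array without which ACACA passed for CEE+MPA against control. FADS2 was lowest in CEE+MPA replicate 2 (445, others 646 to 654).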

How the results depend on the processing

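No paired analysis was possible because the labels give no replicate numbers, and no animal appears in more than 1 group. Counts of called members were recomputed under 12 other settings, 1 more chosen after seeing the data (only the 12 arrays with a skeletal muscle marker mean of at most 1), and without each array in turn. For CEE against control, tibolone against control, CEE+MPA against CEE and tibolone against CEE the counts of sterol and of fatty acid genes were 0 under all of them. For CEE+MPA against control the sterol count was 1 in place of 0 with median centring, with an offset of 64, with the filter at the 75th percentile and when blocked on spike-in sets, and 0 to 1 without single arrays. It was 1 in 2 of the 8 runs without single arrays. PMVK passed in 1 of these, and in the other a sterol gene that was not identified. The fatty acid count was 0 in place of 1 on arrays with little skeletal muscle signal and 0 to 1 without single arrays. For tibolone against CEE+MPA the sterol count was 0 in place of 1 with quantile normalization, an offset of 1, no filter, only the groups compared, blocking on spike-in sets, adipocyte or skeletal muscle markers as a covariate, and on arrays with little skeletal muscle signal, and 0 to 2 without single arrays. PMVK and STARD4 did not pass in the same run, so the count of 2 takes in another sterol gene, which was not identified. The fatty acid count was 0 in place of 1 with only the groups compared and on arrays with little skeletal muscle signal, and 1 to 1 without single arrays. The last 2 settings use fewer arrays; for the others the cause was not tested. No called gene changed direction. Signal over background is low for ELOVL5, which limits any statement on it. Median centring moved the calls over all probe sets with CEE+MPA against control from 561 higher and 1258 lower to 971 and 959, and with tibolone against CEE+MPA from 1086 higher and 734 lower to 674 and 1094.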

Other observations

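Marker lists that lay beside the lipid genes moved as follows with CEE+MPA against control (limma). Of 11 adipocyte genes 2 fell, the adipsin gene CFD with a log2 fold change of -1.42 ± 0.36 (adjusted p = 0.0318) and the resistin gene RETN with -1.11 ± 0.22 (adjusted p = 0.0119), and 0 rose. Of 10 fibroblast genes 4 fell (FBLN1, OGN, DPT and LUM). Of 11 macrophage genes 1 fell (MS4A7, -0.80 ± 0.19, adjusted p = 0.0243), and of 12 luminal genes 1 rose (KRT19, 0.63 ± 0.17, adjusted p = 0.0409). Of all genes 7.69% were called in this comparison, and the macrophage and luminal shares were near that. At an unadjusted p under 0.05 there were 6 luminal genes, KRT19 and ELF5 above 0 and KRT7, KRT18, CLDN4 and KRT8 below it. There were also 4 adipocyte, 4 fibroblast and 9 macrophage genes, beside 28.3% of all genes. None of 7 milk secretion genes, 9 skeletal muscle genes or 3 sebaceous gland genes passed, with 1, 1 and 2 at an unadjusted p under 0.05. The milk secretion mean was 0.33 ± 0.0931 in controls, -0.145 ± 0.743 with CEE, 0.49 ± 0.333 with CEE+MPA and -0.675 ± 1.14 with tibolone (SD, n = 4).

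With tibolone against CEE+MPA, CFD rose by 1.36 ± 0.36 (limma, adjusted p = 0.0384) and RETN by 1 ± 0.22 (adjusted p = 0.0223). Among luminal genes FOXA1, a transcription factor of hormone-sensing cells, rose by 1.58 ± 0.43 (adjusted p = 0.0428), and ELF5, a transcription factor of milk-forming cells, fell, with -1.31 ± 0.33 (adjusted p = 0.0352). Of 10 fibroblast genes 3 rose (FBLN1, DPT and OGN). No macrophage, milk secretion, skeletal muscle or sebaceous gland gene passed, with 4, 4, 0 and 0 at an unadjusted p under 0.05. Of all genes 7.35% were called in this comparison, and 28% had an unadjusted p under 0.05.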
